A study of Mus musculus with 12 samples.

Results

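The acute phase response is the change in hepatocyte protein secretion that follows inflammation or injury. Interleukin-1 and tumour necrosis factor act through NF-kappaB, interleukin-6 acts through STAT3, and C/EBP factors join both at the promoters of the responding genes. Positive acute phase proteins, such as the serum amyloid A proteins, are secreted in larger amounts, while negative ones, such as albumin and transthyretin, are secreted in smaller amounts. Described here are 34 mouse genes of this response, 27 positive and 7 negative ones. They were listed by name with earlier results of these data known, so counts of them beside all probe sets are descriptions, not tests. The platform annotation pairs 15780 genes with a probe set. Of the 34, 32 have a probe set, while Serpina3m and Serpina3k are not analysed here. A gene was tested where its value, log2(intensity + 1), reached 4 on at least 3 arrays. This held for 31 of the 34, made up of 24 positive and 7 negative genes, and A2m fell below it.

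Liver RNA of 12 mice was hybridised, 1 Affymetrix array per mouse, in 4 groups of 3. The groups were c-Met knockout mice 2 h after 2 µg recombinant mouse HGF by intraperitoneal injection, c-Met knockout mice labelled unstimulated, control mice 2 h after the same HGF dose, and control mice labelled unstimulated. All mice derive from a line with loxP-flanked c-Met alleles, and the knockout adds Cre recombinase driven by the albumin promoter (Alb-Cre) or by regulatory elements of the albumin and alpha-fetoprotein genes (Alfp-Cre). Both drivers target hepatocytes, and which other liver cells keep c-Met is not shown here. The labels do not tie an array to either driver. The strain and age are not given in the sources used here, and whether the unstimulated mice received a saline injection is not clear from the labels. HGF and the injection itself therefore cannot be told apart. Control livers occupy array numbers 1 to 6 and knockout livers 7 to 12, so genotype and array order cannot be told apart either.

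Median intensities, on the deposited linear scale, were 6.75 to 7.03 on the 12 arrays. The values that follow are log2(intensity + 1), so they are not to be set against these medians. The Met probe set averaged 6.77 ± 0.57 in knockout livers with HGF, 6.98 ± 0.26 in knockout livers without HGF, 6.80 ± 0.21 in control livers with HGF and 6.74 ± 0.11 in control livers without HGF (SD, n = 3), and which exons its probes cover is not known here. Of the 7 hepatocyte markers on the array, the dimmest, Hnf4a, lay between 8.93 and 10.06 on all arrays. The arrays of 1 group were not alike among the knockouts. Within the knockout group without HGF, replicate 2 was the highest array for 23 of the 24 tested positive genes, all but Itih2, and the lowest for all 7 negative genes. Among knockout livers with HGF, replicate 2 was the lowest array for 21 of the 24 positive genes. The tests that use knockout livers are therefore given with and without both arrays numbered 2.

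**Figure D1:**
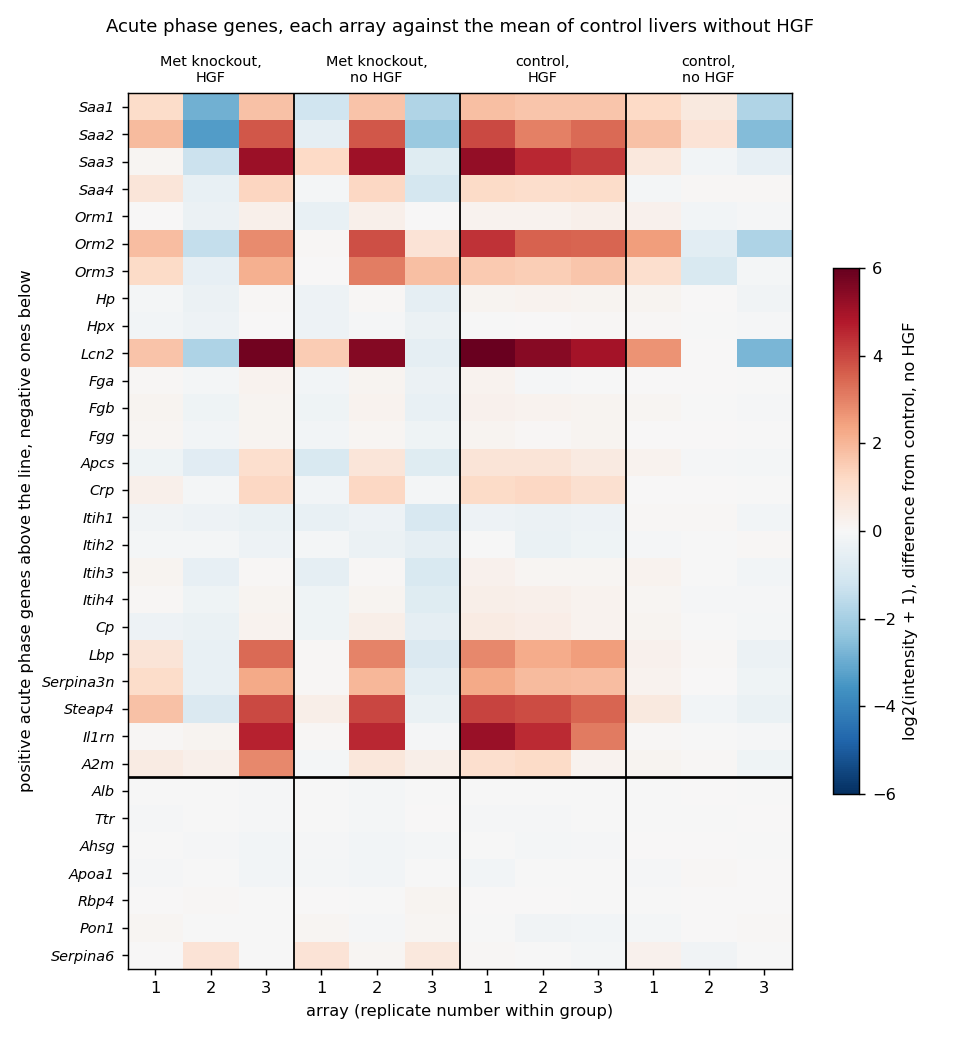
Each cell shows log2(intensity + 1) of 1 gene on 1 array minus the mean of the 3 control livers without HGF. Red columns are seen for the 3 control livers with HGF, for knockout replicate 2 without HGF and for knockout replicate 3 with HGF, and the rows of the 7 negative genes stay pale.

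In control livers, most positive acute phase genes had higher means 2 h after HGF, and the means of the negative ones were nearly level. Of the 24 tested positive genes, 22 had a positive HGF effect, with a median of 0.89 on the log2 scale, against -0.09 for all 6683 tested probe sets. Of these 24, 12 were higher by at least 1, a size reached upward by 4.7% of all tested probe sets. The 3 arrays with HGF lay above the 3 without for 17 of the 24, against 14.1% of all tested probe sets. The 7 negative genes had a median of -0.05, and none differed by as much as 1. The 2 sets of genes differ in brightness, so these medians describe the lists and are not a test between them. Il1rn and Orm3 reached the filter on only 5 and 6 arrays, mostly those where they were high, so their place among the tested genes follows in part from the difference itself.

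With the spread pooled over all 4 groups, limma called 0 of the 31 genes in this comparison. It called 0.299% of all tested probe sets upward and 0.105% downward. At an unadjusted p under 0.05, 8 positive genes were higher and 0 of either list were lower, against 8.95% of all tested probe sets higher and 10.6% lower. The pooled spread includes the knockout arrays, which differ widely among themselves. The median SD of the positive genes was 0.79 in knockout livers with HGF and 0.85 in knockout livers without HGF, against 0.14 in control livers with HGF and 0.18 in control livers without HGF. Fitted to the 6 control arrays alone, limma called 9 of the 24 positive genes upward and 0 negative genes, against 6.79% of all tested probe sets upward and 5.19% downward. Those 9 were Saa3, Saa4, Lcn2, Crp, Apcs, Lbp, Serpina3n, Steap4 and Il1rn, with limma adjusted p from 0.000512 (Steap4) to 0.0367 (Lcn2). The limit given above for Il1rn, which reached the filter on only 5 arrays, holds for its calls too. With array weights, or without both knockout arrays numbered 2, limma also called 9 positive genes upward, in both cases with Orm2 in place of Apcs. Array weights called 8.86% of all tested probe sets upward and 11.4% downward, and leaving out those arrays 5.34% upward and 2.81% downward. All these fits use the same 6 control arrays, so they are not independent of each other. The knockout arrays numbered 2 were singled out by their values, so the smaller pooled spread without them follows in part from that choice.

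The serum amyloid A genes encode small apolipoproteins that ride on high-density lipoprotein. Saa3, made by hepatocytes and macrophages in mice, stood at 12.82, 12.07 and 11.72 in control livers with HGF (replicates 1 to 3), against 8.20, 7.39 and 7.05 in control livers without HGF. The groups are far apart, and the HGF effect was 4.66 (SE 1.65, 25.3-fold, limma adjusted p = 0.164). It passed in the fit of the control arrays alone, where the SE was 0.37 and the limma adjusted p = 0.000709. Saa2 stood at 12.98, 12.03 and 12.45 with HGF in controls, against 10.81, 9.86 and 6.42 without. Its effect was 3.46 (SE 1.93), and replicate 3 is far below the other untreated controls. Saa1 was already bright in 2 of the untreated controls, at 13.22, 13.08 and 13.11 with HGF, against 9.64 to 12.63 without. Saa4, a constitutive member of the family in humans, differed less and more evenly, at 11.22, 11.09 and 11.15 with HGF, against 9.92, 10.12 and 10.14 without, an effect of 1.10 (SE 0.10 in the control arrays alone, limma adjusted p = 0.00136). Saa1 and Saa2 are close copies, so their probe sets may share signal.

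Among the small-molecule binders, Lcn2, which withholds iron from bacteria by binding their siderophores, had the largest HGF effect of all 31 genes in controls, 5.46 (SE 2.03, limma adjusted p = 0.180). Its values were 12.70, 12.26 and 11.76 with HGF, against 9.49, 6.80 and 4.06 without, so the untreated controls alone spanned a wide range. The orosomucoids bind drugs and lipids in plasma, and their genes had effects of different size. Orm2 stood at 11.42, 10.60 and 10.55 in controls with HGF, against 9.57, 6.45 and 5.22 without, an effect of 3.78 (SE 1.37). Orm1 was at 13.20, 13.16 and 13.26 with HGF, against 13.22, 12.79 and 12.89 without, and these ranges overlap. Orm3 was near background throughout, at 4.34, 4.24 and 4.44 with HGF, against 3.79, 1.86 and 2.67 without. The 3 genes are close copies, and their probe sets may share signal.

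Lbp, which hands bacterial lipopolysaccharide to CD14, stood at 9.49, 8.83 and 9.13 in controls with HGF, against 6.88, 6.68 and 6.25 without (effect 2.55, SE 0.22 in the control arrays alone, limma adjusted p = 0.000954). The pentraxins are pattern-recognition proteins of plasma, and Apcs is the better known acute phase pentraxin in mice. Crp was at 12.63, 12.68 and 12.41 with HGF, against 11.49, 11.47 and 11.42 without, an effect of 1.11. Apcs had the smaller effect of the pair, 0.69 (SE 0.12 in the control arrays alone, limma adjusted p = 0.0163), with 12.07, 12.09 and 11.86 with HGF, against 11.51, 11.24 and 11.20 without. All 3 of these genes had groups that did not overlap.

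Serpina3n, a secreted protease inhibitor, stood at 12.61, 12.27 and 12.20 in controls with HGF, against 10.58, 10.40 and 10.10 without, an effect of 2.00 (SE 0.17 in the control arrays alone). Steap4, a membrane metalloreductase, was at 12.39, 12.25 and 11.85 with HGF, against 8.93, 8.17 and 7.96 without. Its effect of 3.81 had the smallest limma adjusted p of the members in the control arrays alone. Il1rn encodes the antagonist of the interleukin-1 receptor. It was at 8.05, 7.33 and 5.99 with HGF in controls and at background without, at 2.94, 2.84 and 2.79, an effect of 4.27 (SE 1.38). A2m, an acute phase protein of the rat, passed the filter on 1 array only, knockout replicate 3 with HGF, where it reached 5.43, and was not tested.

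Promoters are shown for 6 of the positive genes with HGF effects above 1 in controls, whose values were high on the same knockout arrays, with Alb as a negative gene for contrast. The 6 were chosen after their values were seen and are not the 6 with the largest effects. Each window shown holds a C/EBP match, which is not so for all positive genes. RefSeq windows (GRCm38.p6) run from 250 bases before to 50 after the start of transcription, and capitals mark matches, on either strand, to GGG, any 2 bases, TTTCC (NF-kappaB), TTCNNNGAA (STAT), TTGCNNAA (C/EBP) or GTTAAT, any base, ATTAAC (HNF1). No match overlaps another in these windows.
Saa1 (chr7:46742931-46743230, minus strand): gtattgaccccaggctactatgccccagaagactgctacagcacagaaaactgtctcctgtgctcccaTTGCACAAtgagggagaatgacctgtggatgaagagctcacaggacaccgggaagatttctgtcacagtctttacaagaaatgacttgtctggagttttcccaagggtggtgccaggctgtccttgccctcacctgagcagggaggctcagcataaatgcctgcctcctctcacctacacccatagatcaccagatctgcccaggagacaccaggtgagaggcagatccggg
Saa2 (chr7:46751583-46751882, plus strand): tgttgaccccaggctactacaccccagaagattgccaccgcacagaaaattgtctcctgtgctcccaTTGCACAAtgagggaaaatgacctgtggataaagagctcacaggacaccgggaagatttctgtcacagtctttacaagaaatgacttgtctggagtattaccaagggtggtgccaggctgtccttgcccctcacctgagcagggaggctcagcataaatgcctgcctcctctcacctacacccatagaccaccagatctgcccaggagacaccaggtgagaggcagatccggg
Saa3 (chr7:46715627-46715926, minus strand): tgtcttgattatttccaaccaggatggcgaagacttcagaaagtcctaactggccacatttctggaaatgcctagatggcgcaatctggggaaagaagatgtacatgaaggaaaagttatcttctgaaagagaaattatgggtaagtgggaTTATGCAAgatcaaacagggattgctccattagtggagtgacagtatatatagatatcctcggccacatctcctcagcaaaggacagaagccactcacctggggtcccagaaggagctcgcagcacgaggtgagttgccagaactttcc
Orm2 (chr4:63362199-63362498, plus strand): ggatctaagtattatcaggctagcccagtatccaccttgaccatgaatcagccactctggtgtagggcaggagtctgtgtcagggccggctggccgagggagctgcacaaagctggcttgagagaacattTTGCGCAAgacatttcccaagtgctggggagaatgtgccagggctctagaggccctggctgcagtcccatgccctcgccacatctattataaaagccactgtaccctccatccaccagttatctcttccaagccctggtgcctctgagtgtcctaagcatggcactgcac
Lcn2 (chr2:32387690-32387989, minus strand): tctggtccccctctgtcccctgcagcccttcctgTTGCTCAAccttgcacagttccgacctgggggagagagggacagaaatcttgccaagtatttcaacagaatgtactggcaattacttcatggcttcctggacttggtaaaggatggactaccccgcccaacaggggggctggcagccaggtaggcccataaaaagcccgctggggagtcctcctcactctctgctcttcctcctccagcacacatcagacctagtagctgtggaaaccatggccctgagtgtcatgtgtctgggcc
Steap4 (chr5:7960222-7960521, plus strand): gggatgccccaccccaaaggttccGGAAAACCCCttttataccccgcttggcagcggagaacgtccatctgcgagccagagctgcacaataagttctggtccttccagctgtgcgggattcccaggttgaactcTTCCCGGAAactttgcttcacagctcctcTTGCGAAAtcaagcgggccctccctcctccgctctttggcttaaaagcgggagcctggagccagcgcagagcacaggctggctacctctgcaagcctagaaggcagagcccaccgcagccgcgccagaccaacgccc
Alb (chr5:90460620-90460919, plus strand): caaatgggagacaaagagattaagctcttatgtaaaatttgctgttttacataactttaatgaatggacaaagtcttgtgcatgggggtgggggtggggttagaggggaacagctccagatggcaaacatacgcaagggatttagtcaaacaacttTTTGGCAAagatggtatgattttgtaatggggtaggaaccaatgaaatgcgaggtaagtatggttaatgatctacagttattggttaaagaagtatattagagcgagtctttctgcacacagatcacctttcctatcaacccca

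The Saa1 and Saa2 windows are 95.3% identical over their aligned length and carry the same C/EBP match, TTGCACAA, beginning at -182 in Saa1 and -183 in Saa2, counted from the start. The Saa3 window is 50.1% identical to that of Saa1, and its match begins at -99, while the Orm2 match, TTGCGCAA, is the palindromic form. Steap4 holds 1 match each for NF-kappaB, STAT and C/EBP. Windows were found for 21 positive and 5 negative genes, counting a gene once if any of its windows held the motif. A C/EBP match occurred in 13 of the 21 positive and in 4 of the 5 negative genes (Ahsg, Alb, Pon1 and Rbp4), against 12.2% of all 27025 genes and 10.8% of all windows. A STAT match occurred in 5 of the 21 positive genes (Apcs, Fga, Fgb, Itih4 and Steap4) and 0 of the 5 negative genes, against 9.55% of all genes. An NF-kappaB match occurred in 3 of the 21 positive genes (Il1rn, Serpina3n and Steap4) and 0 of the 5 negative genes, against 1.89% of all genes. No member window held the HNF1 letters, which 0.0111% of all genes did. These matches are descriptions of letters, and copies such as Saa1 and Saa2 share theirs. Members with a C/EBP match had HGF effects in controls from -0.23 (Itih2) to 5.46 (Lcn2), so the match was found on genes with small and with large effects. Il1rn (4.27) and Serpina3n (2.00), whose windows are not shown, had no C/EBP match.

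The abundant plasma proteins barely differed. The 8 positive genes with a mean of at least 12 in untreated controls were Orm1, the haemoglobin scavenger gene Hp, the haem scavenger gene Hpx, the 3 fibrinogen chain genes Fga, Fgb and Fgg, and the inter-alpha-inhibitor heavy chain genes Itih3 and Itih4. Their HGF effects ran from 0.03 (Hpx) to 0.28 (Itih4), with a median of 0.17. The 8 positive genes between 10 and 12 had a median of 0.89, and the 8 below 10 had a median of 3.79, ranging from 1.56 to 5.46. The mean that sets these bounds is also subtracted to give the effect. A low value in untreated controls thus both places a gene in the lowest set and enlarges its effect. The lowest set also holds Il1rn and Orm3, which reached the filter mostly on arrays where they were high. The sets are therefore a description only. Fgb, which encodes the beta chain of fibrinogen, stood at 14.14, 14.10 and 14.08 with HGF, against 13.99, 13.87 and 13.81 without, close to the array maxima of 14.43 to 14.54. The part of this nearness to the top of the scale in the small effects was not tested. Cp, the copper-carrying ferroxidase gene, one of the middle set, had an effect of 0.37 (SE 0.22). Its values were 12.21, 12.09 and 11.91 with HGF, against 11.86, 11.67 and 11.57 without.

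**Figure D2:**
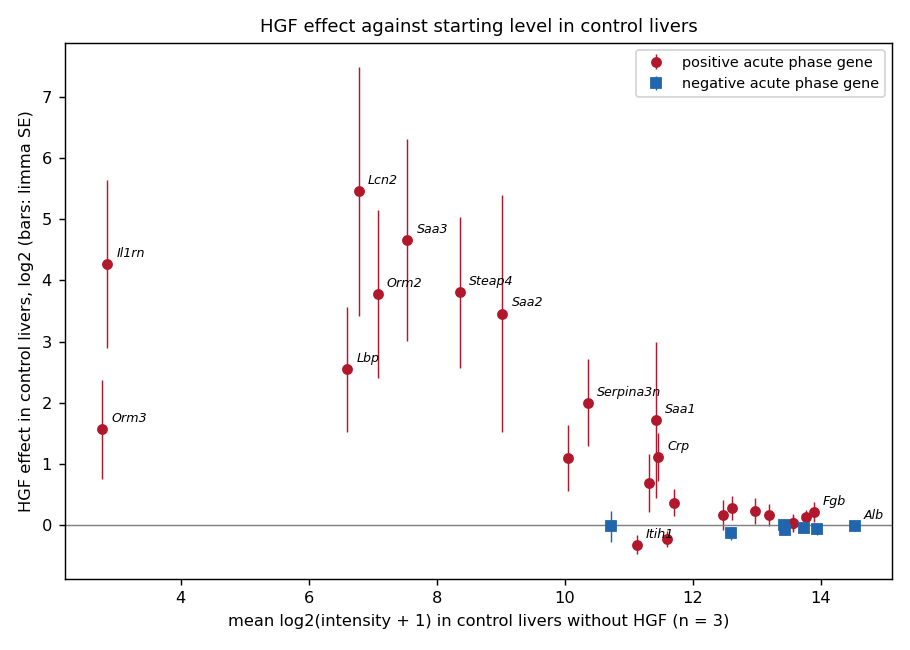
The x axis gives the mean log2(intensity + 1) of each tested gene in the 3 control livers without HGF and the y axis its HGF effect in control livers, with limma standard errors pooled over all 4 groups as bars. The effects of 1.56 or more below a level of 10 and those of 0.28 or less above 12 can be read from the plot, with the 7 negative genes along the zero line. The mean on the x axis is also subtracted to give the effect, so the axes are not independent.

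Itih1 and Itih2, which encode heavy chains of the inter-alpha-inhibitor family, had effects of the opposite sign. Itih1 was at 10.81, 10.77 and 10.84 in controls with HGF, against 11.22, 11.22 and 10.95 without, and these groups do not overlap. This was the single member of either list with lower values on all 3 HGF arrays of controls, a pattern that 23.7% of all tested probe sets showed. The effects were -0.32 (SE 0.16) for Itih1 and -0.23 (SE 0.13) for Itih2, and limma called neither in either fit.

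The negative acute phase genes encode carriers that take up much of the liver's secretory output. Alb was at 14.50, 14.53 and 14.53 in controls with HGF, against 14.53, 14.54 and 14.53 without, and it was the highest probe set on each of the 12 arrays. Its interval for the HGF effect, -0.19 to 0.16 (95%), is therefore that of a probe set at the top of the scale. Ttr, the carrier of thyroxine and of retinol-binding protein, was at 13.69, 13.68 and 13.70 with HGF, against 13.69, 13.74 and 13.78 without. Rbp4, the retinol carrier, was at 13.44, 13.44 and 13.41 with HGF, against 13.39, 13.46 and 13.44 without. Neither Ttr nor Rbp4 separated the groups. Ahsg, the fetuin-A gene, was at 13.43, 13.30 and 13.38 with HGF, against 13.46, 13.45 and 13.41 without. Apoa1, the main apolipoprotein of high-density lipoprotein, was at 13.79, 13.93 and 13.91 with HGF, against 13.89, 14.00 and 13.95 without. Both ranges overlap between the groups, and all these shifts are small. The largest effect in the negative list was -0.13 (SE 0.10) for Pon1, an esterase carried on high-density lipoprotein, at 12.60, 12.38 and 12.43 with HGF, against 12.48, 12.64 and 12.68 without. Serpina6, which encodes the corticosteroid carrier of plasma, was at 10.81, 10.69 and 10.60 with HGF, against 10.96, 10.49 and 10.70 without. Its 95% interval, -0.57 to 0.53, was the widest of the 7.

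**Figure D3:**
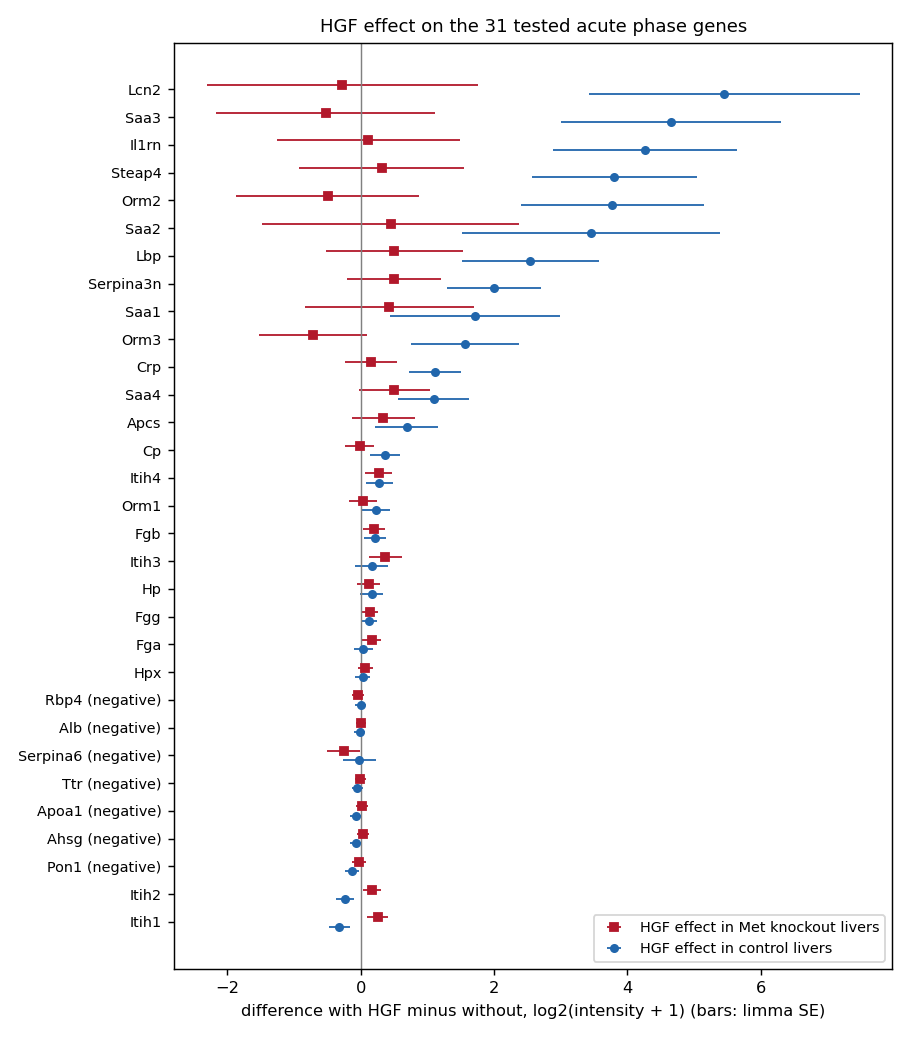
Points give the HGF effect (with minus without) on each tested gene in Met knockout livers (squares) and control livers (circles), and bars give limma standard errors from the fit of all 12 arrays. Control effects reach 5.46 for Lcn2, while the knockout effects lie between -0.72 (Orm3) and 0.51 (Lbp).

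In knockout livers, the groups labelled with and without HGF overlapped for all 31 genes, while 2.56% of all tested probe sets were separated upward and 1.24% downward. Each group held arrays with high and with low positive acute phase genes. The median HGF effect of the 24 positive genes was 0.16 and that of the 7 negative genes was 0.00, against 0.00 for all tested probe sets. Limma called 0 of 31 members and 0% of all tested probe sets in either direction, and 0 of the 31 had an unadjusted p under 0.05, against 1.02% of all tested probe sets higher and 0.883% lower. The positive genes averaged 10.76, 9.54 and 11.91 on replicates 1 to 3 with HGF, against 10.14, 11.94 and 9.75 on replicates 1 to 3 without HGF. The matching averages in controls were 12.01, 11.75 and 11.66 with HGF, against 10.77, 10.23 and 9.77 without HGF. Knockout replicate 3 with HGF and knockout replicate 2 without HGF lay within the range of the controls given HGF. Knockout replicate 2 with HGF had the lowest mean of the 12 arrays.

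**Figure D4:**
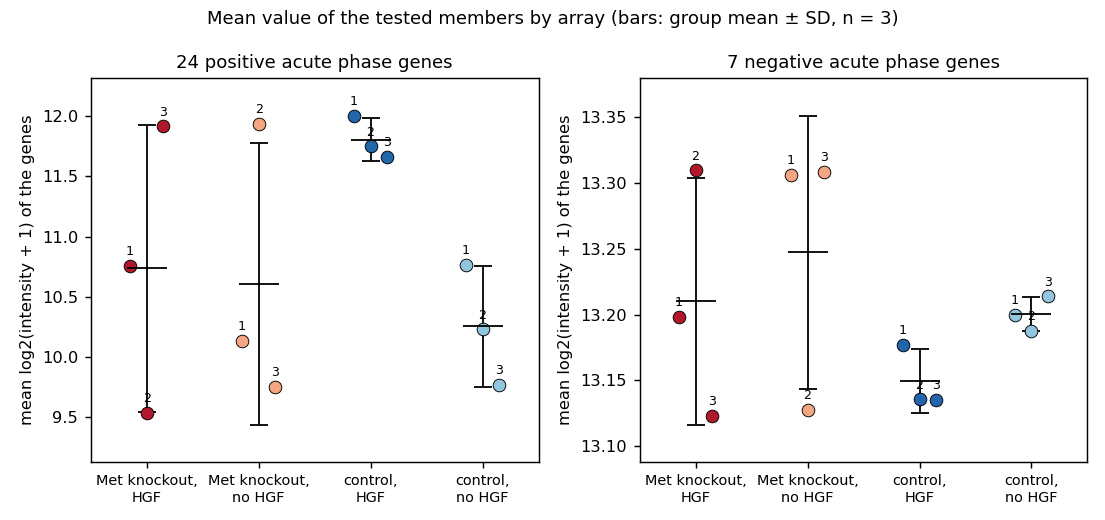
The left panel plots the mean log2(intensity + 1) of the 24 tested positive genes on each array and the right panel that of the 7 negative genes, on different scales; horizontal bars give the group mean ± SD (n = 3) and numbers the replicates. Knockout livers without HGF hold values of 9.75 to 11.94 and knockout livers with HGF values of 9.54 to 11.91 in the left panel.

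The same arrays stood out gene by gene. Saa3 was at 7.66, 6.26 and 12.69 in knockout livers with HGF, against 8.75, 12.62 and 6.81 in knockout livers without HGF. Lcn2 was at 8.47, 4.92 and 12.57 with HGF, against 8.29, 12.27 and 6.23 without. In both genes 1 array of each group was at the level of HGF-treated controls and the others were several units lower. Il1rn was on or off in the same way, at 2.95, 3.02 and 7.46 with HGF, against 2.93, 7.36 and 2.78 without. Steap4 graded more finely, at 10.14, 7.51 and 12.32 with HGF, against 8.69, 12.36 and 7.96 without, with replicate 1 with HGF between the high and the low arrays. Serpina3n had the same intermediate array, at 11.48, 9.91 and 12.65 with HGF, against 10.43, 12.35 and 9.75 without. Knockout replicate 1 with HGF lay above all 3 untreated controls for 11 of the 24 positive genes and below all 3 HGF-treated controls for 19 of them. Knockout replicate 3 with HGF lay above all 3 untreated controls for 19 positive genes, and so did knockout replicate 2 without HGF, the exceptions being Hp, Hpx, Itih1, Itih2 and Itih3 in each case.

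Other positive genes with an HGF effect of at least 1 in controls varied in a similar way among the knockouts. Saa2 was at 10.95, 5.66 and 12.78 with HGF, against 8.48, 12.76 and 6.80 without. Saa1 was at 12.54, 8.55 and 13.20 with HGF, against 10.21, 13.16 and 9.63 without. The lowest Saa1 and Saa2 values of the series were those of knockout replicate 2 with HGF. Saa4 was at 10.78, 9.61 and 11.34 with HGF, against 9.93, 11.30 and 8.99 without. Lbp was at 7.38, 6.17 and 9.98 with HGF, against 6.69, 9.59 and 5.74 without. Both again had 1 array of each group at the level of HGF-treated controls. Crp was at 11.74, 11.33 and 12.69 with HGF, against 11.30, 12.68 and 11.33 without. Orm2 was at 8.92, 5.66 and 9.92 with HGF, against 7.15, 10.95 and 7.89 without, and Orm3 at 3.93, 2.29 and 4.89 with HGF, against 2.81, 5.85 and 4.59 without. In Orm2 and Orm3 alone among these genes, the highest array without HGF exceeded the highest with HGF by about 1.

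**Figure D5:**
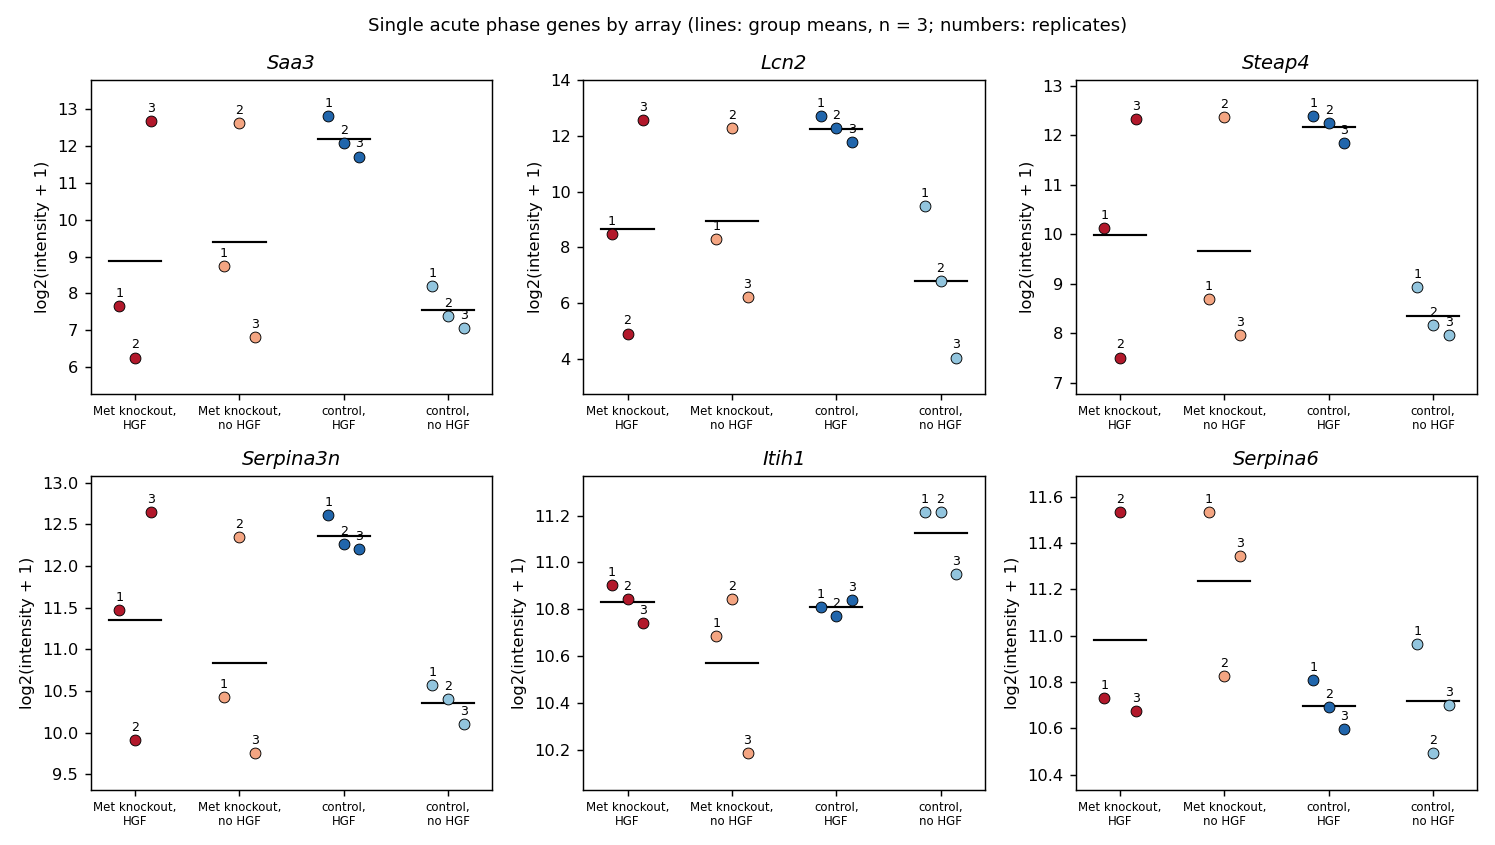
Each panel plots log2(intensity + 1) of 1 gene on the 12 arrays, with replicate numbers beside the points and lines at the group means (n = 3); the y scales differ. Saa3, Lcn2, Steap4 and Serpina3n are high on knockout replicate 3 with HGF and knockout replicate 2 without HGF, where Serpina6 is at 10.67 and 10.82.

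The negative genes varied in the opposite sense between knockout arrays, by much less. Their mean was 13.20, 13.31 and 13.12 on replicates 1 to 3 with HGF, against 13.31, 13.13 and 13.31 without. Serpina6 varied most, at 10.73, 11.53 and 10.67 with HGF, against 11.53, 10.82 and 11.34 without. The values of 11.34 to 11.53 fall on the 3 knockout arrays with the lowest mean of the positive genes, and all 6 control arrays lay below them, at 10.49 to 10.96. Alb was at 14.50, 14.49 and 14.48 with HGF, against 14.49, 14.43 and 14.53 without, and Ttr at 13.67, 13.73 and 13.67 with HGF, against 13.72, 13.63 and 13.74 without. Ahsg was at 13.42, 13.38 and 13.29 with HGF, against 13.38, 13.27 and 13.33 without, and Apoa1 at 13.88, 13.94 and 13.78 with HGF, against 13.83, 13.77 and 13.91 without. Rbp4 was at 13.46, 13.52 and 13.39 with HGF, against 13.47, 13.42 and 13.59 without, and Pon1 at 12.74, 12.58 and 12.58 with HGF, against 12.71, 12.55 and 12.73 without.

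Without both knockout arrays numbered 2, a choice made from their values that in part produces a larger effect, limma called 6 of the 31 members in knockouts. Saa4 rose by 1.60 (SE 0.29), Serpina3n by 1.98 (SE 0.37), Steap4 by 2.90 (SE 0.63), Itih3 by 0.84 (SE 0.16) and Fgb by 0.52 (SE 0.12), while Serpina6 fell by 0.74 (SE 0.17). The limma adjusted p values ran from 0.0230 (Saa4) to 0.0466 (Fgb and Serpina6), and 2.12% of all tested probe sets were called upward and 2.04% downward. Saa2 (4.22, SE 1.28), Lcn2 (3.26, SE 1.72) and Saa1 (2.95, SE 0.79) had larger differences and did not pass. The median effect of the positive genes was then 0.87 in knockouts. This fit sets 2 knockout arrays with HGF against 2 without.

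The HGF effects in knockout and control livers were also compared directly, as an interaction. The median difference in HGF effect, knockout minus control, was -0.49 for the 24 positive genes and 0.05 for the 7 negative genes, against 0.07 for all tested probe sets. The most negative values were those of Lcn2 (-5.73, SE 2.87), Saa3 (-5.19, SE 2.33), Orm2 (-4.27, SE 1.93) and Il1rn (-4.15, SE 1.95). Itih1 had the most positive one (0.58, SE 0.22, limma adjusted p = 0.415), the smallest adjusted p among the members. Limma called 0 of 31 members and 0% of all tested probe sets, and 1 positive gene was higher and 1 lower at an unadjusted p under 0.05, against 5.79% of all tested probe sets higher and 5.04% lower. Without both knockout arrays numbered 2, the median for the positive genes changed sign to 0.21, and limma again called 0 of 31 members, against 0.165% of all tested probe sets upward and 0.195% downward.

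Between genotypes without HGF, the positive genes had a median difference of -0.07, with 11 means higher and 13 lower in knockout livers, and the negative genes a median of -0.04. The differences were not uniform: 6 of the 24 positive genes had means higher by at least 1, a size reached upward by 2.15% of all tested probe sets. These were Lcn2 (2.14, SE 2.03), Saa3 (1.85, SE 1.65), Orm3 (1.64, SE 0.81), Orm2 (1.58, SE 1.37), Steap4 (1.32, SE 1.24) and Il1rn, which lay between Orm2 and Steap4, and none was called. These 6 differences lay, without both knockout arrays numbered 2, between -0.03 (Steap4) and 0.93 (Orm3). Limma called 0 of 31 members, against 0.0299% of all tested probe sets in each direction, and 0 were higher and 2 lower at an unadjusted p under 0.05, against 4.1% of all tested probe sets higher and 6.72% lower. Itih1 stood at 10.68, 10.85 and 10.19 in knockout livers, against 11.22, 11.22 and 10.95 in controls. Itih2 was at 11.47, 11.24 and 11.04 in knockout livers, against 11.55, 11.58 and 11.66 in controls, and Ahsg at 13.38, 13.27 and 13.33, against 13.46, 13.45 and 13.41. These were the 3 members whose knockout arrays all lay below the controls, against 12.1% of all tested probe sets. The differences for Itih1 and Itih2 were -0.56 (SE 0.16, limma adjusted p = 0.242) and -0.35 (SE 0.13, limma adjusted p = 0.378). With array weights, Itih1 fell by 0.49 (limma adjusted p = 0.0275) and Serpina6 rose by 0.75 (limma adjusted p = 0.0275), with 4.29% of all tested probe sets called upward and 5.24% downward. In the fit without weights Serpina6 was higher by 0.51 (SE 0.25, limma adjusted p = 0.501), and without both knockout arrays numbered 2 it rose by 0.72 (SE 0.15, limma adjusted p = 0.0458) and Itih3 fell by 0.73 (SE 0.15, limma adjusted p = 0.0425). The median of the positive genes was -0.33 in that fit, where 1.47% of all tested probe sets were called upward and 1.23% downward.

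In knockout against control livers with HGF, 21 of the 24 positive genes had lower means, with a median of -0.61, and 9 were lower by at least 1, a size reached downward by 2.83% of all tested probe sets. The 9 include Lcn2 (-3.59, SE 2.03), Saa3 (-3.33, SE 1.65), Orm2 (-2.69, SE 1.37) and Saa2 (-2.69, SE 1.93). The negative genes had a median of 0.00. Limma called 0 of 31 members, against 0.015% of all tested probe sets upward and 0% downward, and 0 were higher and 1 lower at an unadjusted p under 0.05, against 5.3% of all tested probe sets higher and 4.28% lower. All 3 knockout arrays lay below the 3 controls for Orm2, Hp, Fgb, Itih4 and Cp, and for 6.08% of all tested probe sets. Cp had the smallest adjusted p, at 11.40, 11.31 and 11.90 in knockout livers, against 12.21, 12.09 and 11.91 in controls (-0.53, SE 0.22, limma adjusted p = 0.509). Without both knockout arrays numbered 2 the median of the positive genes was -0.22, and 0 members were called, against 0.0299% of all tested probe sets upward and 0% downward. With array weights Saa3 fell by 3.93 (limma adjusted p = 0.0471), with 2.05% of all tested probe sets called upward and 2.29% downward. The comparison with HGF and the HGF comparison in controls share the HGF-treated control arrays, so high values there enter both.

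Averaged over both conditions, 23 of the 24 positive genes had lower means in knockout than in control livers, with Orm3 the exception, and a median of -0.28. The negative genes had a median of -0.02. The largest differences were those of Saa2 (-1.19, SE 1.37) and Saa1 (-1.07, SE 0.90), and the smallest adjusted p was that of Hpx (-0.20, SE 0.08, limma adjusted p = 0.465). Serpina6 was higher by 0.40 (SE 0.18, limma adjusted p = 0.528). Limma called 0 of 31 members, against 0.015% of all tested probe sets upward and 0% downward, and 1 member was higher and 2 lower at an unadjusted p under 0.05, against 4.47% of all tested probe sets higher and 4.91% lower. With array weights Apcs fell by 0.79, Cp by 0.40 and Hpx by 0.24, with 4.82% of all tested probe sets called upward and 3.71% downward. Without both knockout arrays numbered 2, the median of the positive genes was -0.34 and 0 members were called, against 0.494% of all tested probe sets upward and 0.359% downward.

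Signalling genes upstream of the acute phase had higher means with HGF in controls too. Of a list of 33 cytokine, receptor and transcription factor genes, 24 were tested, and 19 of them had a positive HGF effect in controls, with a median of 1.36 and 15 at 1 or more, against 4.7% of all tested probe sets. The largest were Relb (4.86, SE 1.30), an NF-kappaB subunit, Cebpd (4.41, SE 1.16), a C/EBP factor induced by interleukin-6, Socs3 (4.04, SE 0.91), the feedback inhibitor of STAT3, and Il1b (3.65, SE 0.85). Relb, Nfkb2 and Onecut1 reached the filter on 5 arrays each and Il1b on 6, so their place among the tested genes follows in part from the difference itself. Limma called 0 of these 24, against 0.299% of all tested probe sets upward and 0.105% downward, and 18 were higher and 2 lower at an unadjusted p under 0.05, against 8.95% and 10.6% of all tested probe sets. Cebpd stood at 9.33, 9.47 and 9.13 in controls with HGF, against 5.30, 4.50 and 4.91 without. In knockout livers it was at 7.19, 4.27 and 8.98 with HGF, against 5.42, 9.08 and 5.42 without, with the same arrays highest and intermediate as for Steap4. The knockout median of the list was 0.16, the largest values being 0.97 for Il1b and 0.73 for the interleukin-1 receptor gene Il1r1, and limma called 0 of the 24 and 0% of all tested probe sets. Without both knockout arrays numbered 2, an alternative for these lists chosen after seeing the data, the knockout median was 1.04. Limma then called 8 of the 24 upward and 2 downward, against 2.12% and 2.04% of all tested probe sets. In that fit Il1r1 rose by 3.02 (SE 0.41), Socs3 by 2.72 (SE 0.21) and Cebpd by 2.67 (SE 0.49), while Il1b, at 2.57 (SE 0.64), did not pass. In controls the same fit called 18 of the 24 upward and 1 downward, against 5.34% and 2.81% of all tested probe sets. The Il6 probe set stayed between 1.72 and 3.13 on all arrays, near background, and was not tested. Within these low values it was at 2.60, 3.13 and 2.69 in controls with HGF, against 2.08, 2.17 and 1.72 without. These ranges do not overlap, and 14.1% of all tested probe sets were separated upward in the same comparison. In knockout livers Il6 was at 2.28, 2.06 and 2.45 with HGF, against 2.02, 2.21 and 1.84 without.

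Other genes of the acute phase, not all of them for secreted proteins, did not move as a block. Of 43 listed genes, among them complement, coagulation and further apolipoprotein genes, 36 were tested, and their median HGF effect in controls was -0.02, with 12 positive and 24 negative values. Limma called 1 of the 36 upward, the metallothionein gene Mt1, against 0.299% of all tested probe sets, and 3 had an effect of at least 1, against 4.7%. The metal-binding gene Mt2 had an effect of 8.86 (SE 1.83) and Cd14, the lipopolysaccharide co-receptor, one of 4.76 (SE 1.74). Cd14 reached the filter on only 6 arrays, those where it was high, so its place among the tested genes follows in part from the difference itself. In knockouts the median was 0.06, the largest effect was that of Mt2 at 1.02 (SE 1.83), and limma called 0 of the 36 and 0% of all tested probe sets. The knockout median was again 0.06 without both knockout arrays numbered 2, but limma called 5 of the 36 upward and 0 downward, against 2.12% and 2.04% of all tested probe sets. Mt2 then rose by 4.80 (SE 0.97), Cd14 by 4.16 (SE 0.87), Mt1 by 3.31 (SE 0.65) and Lrg1, a secreted leucine-rich glycoprotein, by 1.38 (SE 0.24). In controls the same fit called 5 of the 36 upward and 0 downward, against 5.34% and 2.81%.

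Some positive members, Lcn2, Saa3 and Il1rn among them, are also made by neutrophils or macrophages, so markers of these cells were read on the same arrays. The summed intensity of the 11 neutrophil markers was 51.5 to 1283 in knockout livers with HGF, 66.7 to 1295 in knockout livers without HGF, 802 to 2897 in control livers with HGF and 60.2 to 117 in control livers without HGF. It was high on the arrays where the positive acute phase genes were high. The brightest of the markers were S100a8 and S100a9, which reached 10.08 and 10.74, and Mmp8, the third tested one, reached 5.18. The other 8 were not tested. Mpo, Elane, Ltf, Camp, Ngp and Mmp9 stayed below 4 on all arrays, Csf3r reached 4 on 1 array and Cxcr2 on 2. Within these low values, Csf3r was at 3.65, 4.12 and 3.35 in controls with HGF, against 2.74, 2.59 and 2.84 without. Mmp9 was at 2.72, 3.32 and 2.55 with HGF, against 2.40, 2.27 and 2.39 without, and Ngp at 2.94, 3.33 and 2.76, against 2.28, 2.62 and 2.38. These 3 did not overlap between the groups, while Mpo, Elane, Ltf, Camp and Cxcr2 did. Of all tested probe sets, 14.1% were separated upward in this comparison, and the share among probe sets this dim was not determined. The 12 macrophage and Kupffer cell markers had summed intensities of 3032 to 4317 in knockout livers with HGF, 2688 to 4138 in knockout livers without HGF, 2858 to 3831 in control livers with HGF and 3543 to 5369 in control livers without HGF, and these ranges overlap. Of these 12 markers, 11 had lower means with HGF in controls, as had 4307 of all 6683 tested probe sets. The median effect of the 12 was -0.25, and the highest was 2.25. Without HGF, all 12 had lower means in knockout than in control livers (median -0.49), as had 3668 of the 6683. In knockouts, all 12 had a positive HGF effect (median 0.15), as had 3256 of the 6683. The part of the neutrophil signal in the acute phase values was not tested. In whole liver, fewer cells of a type and less RNA per cell cannot be told apart.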

How the data were processed

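Total RNA from cryopreserved mouse liver was labelled with biotin in a one-cycle protocol and measured on Affymetrix arrays, per the labels' protocols. The authors deposited linear GCRMA intensities, 1 per probe set, per the submitters' processing notes, which name no version. GCRMA corrects background by base composition and normalizes between arrays, which hides a shift common to most genes. The table holds 16539 probe sets, 64 of them array controls. Of the other 16475, the platform annotation gives 1 gene symbol to 15780, and 695 have none. RefSeq (GRCm38.p6) gave the same symbol for all 32 members with a probe set.

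Median and summed intensities are linear. All other levels and differences are on the scale log2(deposited intensity + 1), which understates changes near background. The 6683 probe sets at or above 4 on at least 3 arrays were tested in R 4.3.3 with limma 3.58.1. The model held 4 group means, leaving 8 residual degrees of freedom. The 6 contrasts were two-sided, with p-values adjusted over all tested probe sets (Benjamini-Hochberg), and calls were made below 0.05. The 3 arrays per group limit the precision: the median standard error was 0.18 for a difference of 2 groups and 0.25 for the interaction. On simulated data with 200 of 6683 genes changed, the HGF contrast in controls recovered 64% of changes of 1 and 98% of changes of 3. The interaction recovered 44% of changes of 1 and 95% of changes of 3. The changed genes were drawn at random, and each gene had 1 spread in all 4 groups. In knockout livers with HGF the median SD was 0.79 for the positive genes, against 0.21 for all tested probe sets. The recovered shares therefore do not describe the widely spread positive genes.

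Members and lists were chosen with earlier results of these data known. By the naming rule any member may be named, with values by array for negative genes and for positive genes that were called or differed by at least 1 with HGF, and up to 4 genes of each other list. Values by array of other members, of Cebpd and of markers, and Il6, were chosen after they were seen. Promoter windows were aligned with Biopython 1.88.

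Alternatives were the filter, the pseudocount, quantile normalization, median centring, fits of the compared groups alone, array weights, replicate blocks and arrays left out. Leaving out both knockout arrays numbered 2 was a choice made from their values for the members. For the other lists, it was likewise chosen after seeing the data. Whether replicate numbers pair the samples is not known, and the main fit treated the arrays as unpaired.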

Additional observations from a re-analysis of the deposited data

How the results depend on the processing

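Direction and call status of most results held under the 23 alternatives, with exceptions that include these. Members called for the HGF effect in controls numbered 0 in the fit of all arrays, and 9 with the 2 control groups alone, with array weights or without the knockout arrays numbered 2. For the HGF effect in knockouts, 6 were called without the knockout arrays numbered 2. For knockout against control without HGF, 2 were called with array weights and 2 without the knockout arrays numbered 2. With array weights, 1 member was called for knockout against control with HGF (Saa3) and 3 for the averaged knockout effect (Apcs, Cp and Hpx). The cause was not tested. The count was 0 in every contrast when any 1 array was left out. The interaction of Saa1, -1.28, turned to 1.23 without both knockout arrays numbered 2, and that of Saa2, -3.01, to 0.77. The median interaction of the positive genes, -0.49, turned to 0.21 in the same fit. Their median HGF effect in knockouts, 0.16, ran from -0.04 to 0.87 over the alternatives other than single arrays left out. Leaving out 1 array gave -2.17 to 0.15 for Saa1, the positive value when knockout replicate 2 with HGF was left out. Leaving out 1 array moved the median of the positive genes between 0.73 and 0.93 for HGF in controls, and between -0.15 (knockout replicate 3 with HGF removed) and 0.62 (untreated knockout replicate 2 removed) for HGF in knockouts. It lay between -0.91 and -0.08 for the interaction, -0.33 and 0.15 for knockout against control in untreated livers, -1.0 and -0.22 in HGF-treated livers, and -0.48 and -0.09 averaged. Same-numbered arrays did not deviate together in every pair (correlations of 0.05 to 0.18 in controls and -0.83 to 0.12 in knockouts). With 3 arrays per group and the outlying knockout arrays numbered 2, these values cannot settle whether the numbers pair the samples. Same-numbered arrays with and without HGF are neighbours in array order. With a replicate block, also within genotype, limma called 0 members in each contrast fitted. Without the knockout arrays numbered 2, chosen after seeing the data for these lists, 10 signalling genes and 5 other acute phase genes were called for HGF in knockouts. With those arrays, 0 of each were called. Alb was at the array maximum on all arrays, and whether this limits its differences was not tested. Orm3, Il1rn and A2m were near background on several arrays.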
